A study of Mus musculus with 8 samples.

Results

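Expression of 39 genes of glucose breakdown, lactate handling and the tricarboxylic acid (TCA) cycle was examined in the right cerebral cortex of mice with chronic cerebral hypoperfusion. The genes were chosen by symbol, from hexokinase to malate dehydrogenase with 3 membrane transporters, and all 39 were found among the 54752 genes of the count tables. The cortex of 4 sham mice and 4 mice with bilateral carotid artery stenosis (BCAS) was sequenced 3 weeks after surgery, with 1 mouse per library. All mice were wild type adult males of the C57BL/6J strain. In BCAS mice a microcoil narrowed each common carotid artery, the coil on the right side being the tighter one, and sham mice underwent the same operation without coils. The tissue is bulk cortex of the more narrowed side, in which fewer cells of a type and less RNA per cell cannot be told apart.

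Glycolysis splits glucose into pyruvate in the cytosol. Pyruvate is either reduced to lactate or enters the mitochondrion, where pyruvate dehydrogenase and the TCA cycle oxidise it. Many steps exist as isoenzymes that are typical of different cells. Hk1 is the hexokinase of neurons and most brain cells, Hk2 that of muscle and growing or hypoxic cells, and Hk3 that of leukocytes. Likewise Pfkm, Pfkl and Pfkp are named after muscle, liver and platelet phosphofructokinase, and Eno2 and Eno3 are the neuronal and the muscle enolase beside the widely expressed Eno1. Neurons depend on oxidation and take up glucose through Slc2a3 (GLUT3). Glial cells, leukocytes and endothelium export or import lactate through the monocarboxylate transporters Slc16a1 (MCT1) and Slc16a3 (MCT4).

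Several genes of this pathway are textbook targets of the hypoxia-inducible factors, which bind around the letters ACGTG. The promoter sequences of the RefSeq table for the mouse build GRCm38.p6, from 250 bases before to 50 bases after each start, were therefore searched for ACGTG on either strand. The following stretches of 60 bases belong to 5 genes that rose and, for comparison, to Ldha, a gene of the lactate step that was not called. They are written 5′ to 3′ on the strand of the gene, with ACGTG or its reverse complement CACGT in capitals, and CACGTG holds both in overlap.
Hk2, minus strand, chr6:82774474-82774533: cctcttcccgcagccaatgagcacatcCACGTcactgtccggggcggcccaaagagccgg
Hk3, minus strand, chr13:55021509-55021568: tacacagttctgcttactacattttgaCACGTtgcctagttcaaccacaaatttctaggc
Pfkfb3, minus strand, chr2:11553957-11554016: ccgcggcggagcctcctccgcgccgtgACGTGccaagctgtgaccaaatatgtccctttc
Slc16a1, plus strand, chr3:104638438-104638497: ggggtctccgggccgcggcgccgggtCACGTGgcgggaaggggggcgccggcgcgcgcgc
Slc16a3, plus strand, chr11:120949007-120949066: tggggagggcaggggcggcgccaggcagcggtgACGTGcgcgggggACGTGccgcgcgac
Ldha, plus strand, chr7:46845743-46845802: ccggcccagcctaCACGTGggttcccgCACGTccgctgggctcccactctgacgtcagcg

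A match was present in at least 1 promoter of 5 of the 6 genes that rose, the exception being Pfkfb4. It was also present for 5 of the 11 genes that fell and for 9 of the 20 genes without a call that have an entry, with Idh3a and Slc2a3 not in the table. Over the whole table, 21.8% of the 27025 genes and 19.6% of the 32851 promoters held one. A match describes the letters of the window and is no evidence of binding.

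Total counts were 16759364 to 21794435 per library, and 3 counts in the smallest library equal 0.179 counts per 1000000 counted read pairs (CPM, given below after scaling by TMM factors). All 39 genes passed the filter on low counts and were thus in the quasi-likelihood fit of edgeR over 17136 genes. The label of the tissue was met by its markers: the 13 neuron markers summed to 10945 to 12497 CPM in sham libraries and to 4400 to 9361 CPM in BCAS libraries, and 9 of them fell, with a median log2 fold change of -0.69. All 10 microglia and macrophage markers rose, from summed levels of 350 to 427 CPM to 1628 to 6230 CPM. Of 7 astrocyte markers 6 rose, with sums of 4554 to 5245 CPM in sham and 6096 to 9211 CPM in BCAS libraries. Of 13 blood leukocyte markers 5 were tested and all 5 rose, with sums of 4.28 to 7.61 CPM against 10.5 to 137 CPM, and 7 of the 13 were at 0 in at least 1 sham library. Of the tested ones, Ly6c2 and Cd8a were at 0 to 0.17 and 0 to 0.19 CPM in sham libraries. They passed the filter through the BCAS libraries alone, so their direction was set by the filter. None of the 7 oligodendrocyte markers and 2 of the 7 endothelial markers, both higher, were called. Of 5 erythroid and 6 striatal markers, 2 and 1 rose. Skeletal muscle markers summed to 10.7 to 18.4 CPM in sham and 6.11 to 11.8 CPM in BCAS libraries, and 4 of the 7 were at 0 in at least 1 sham library. Of the 3 muscle markers tested, Tnni2 rose, with a log2 fold change of 3.47 (adjusted p = 0.0103). Tnni2 had 0 to 0.40 CPM in sham and 0.97 to 2.78 CPM in BCAS libraries, so it passed the filter through the BCAS libraries alone. Acta1 and Mylpf had log2 fold changes of -0.99 and -0.39 without a call. The part of these cell types in the results below was not tested. One sham library, Sham 3, stood apart with 775 CPM of choroid plexus markers against 13.9 to 50.4 CPM in the other sham libraries, and with 3859 CPM of oligodendrocyte markers against 5949 to 6214 CPM. Among BCAS libraries, BCAS 4 had 625 CPM of striatum markers against 295 to 312 CPM.

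**Figure D1:**
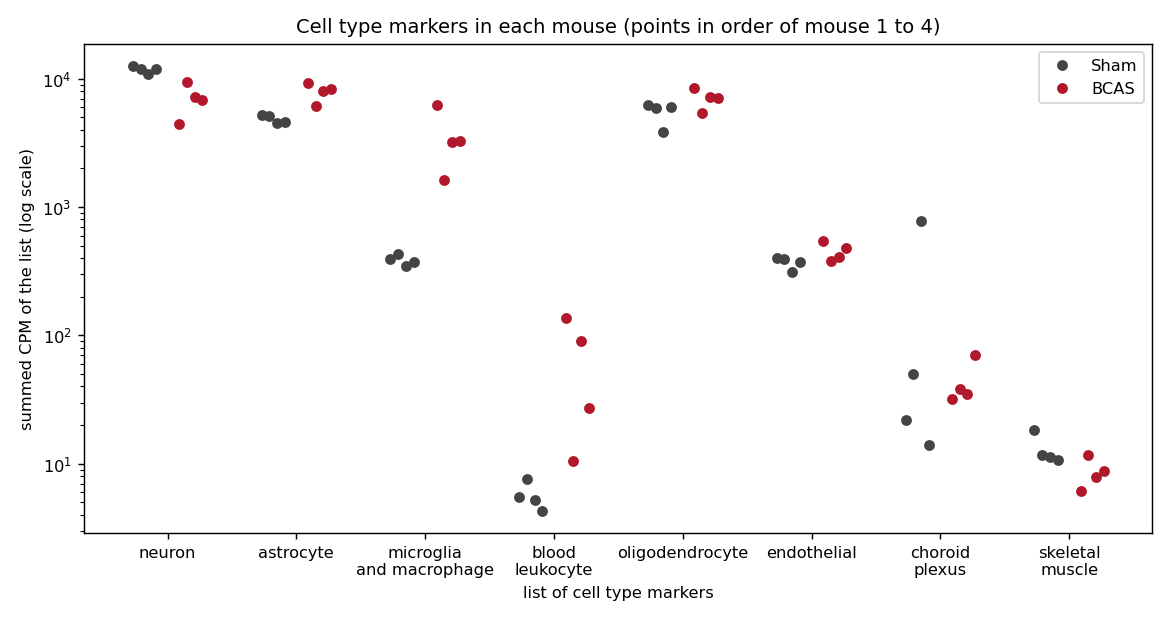
Summed expression of 8 lists of cell type markers in each library, in CPM on a log axis, with sham libraries in grey and BCAS libraries in red. Each point is 1 mouse, and the neuron, microglia, astrocyte and leukocyte lists do not overlap between the groups.

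In BCAS mice the genes of the pathway moved in opposite directions, also within the hexokinase step. The genes that rose, 6 in number, were Hk2, Hk3, Pfkfb3, Pfkfb4, Slc16a1 and Slc16a3. Among the 39 genes these encode the less common hexokinases, both inducible PFKFB regulators and both lactate transporters. Hkdc1 and Slc16a7, which lie outside the 39 and are described below, did not rise. A further 12 genes fell, namely Hk1, Pfkm, Pfkp, Pgk1, Eno2, Pdk2, Idh3a, Idh3b, Sucla2, Suclg1, Mdh1 and Mdh2, and 21 had no call. Pdk2 among them encodes a regulator of pyruvate dehydrogenase and not a step of the route. A gene was called at an adjusted p under 0.05, which 32.0% of all tested genes reached, 19.2% being higher and 12.8% lower. The increases were large, with log2 fold changes of 0.90 to 3.85, and the decreases small, from -0.27 to -0.66. At the thresholds of the study, which also ask for an absolute log2 fold change above 1, 5 of the 39 genes were higher, beside 11.0% of all tested genes, and 0 were lower, beside 1.28%. In total 31 of the 39 log2 fold changes were negative, and their median was -0.28 beside -0.01 over all tested genes. The CPM of the groups did not overlap for 29 of the 39 genes, 23 of them lower and 6 higher in BCAS, beside 34.8% of all tested genes.

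The 6 increases were called whichever library was left out. The decreases were not: 0 of the 12 passed without Sham 1, Sham 2 or Sham 4, 1 passed without BCAS 3, 2 without BCAS 4 and 7 without Sham 3. Without BCAS 1, Pdk2, Pfkp and Suclg1 lost their call. Counting all members called lower, newly called ones included, there were 12 without BCAS 1 and 21 without BCAS 2. At an unadjusted p under 0.05, 26 genes were lower with all libraries and 15 to 24 with 1 left out. With library size alone in place of TMM factors the split was 6 higher and 6 lower.

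**Figure D2:**
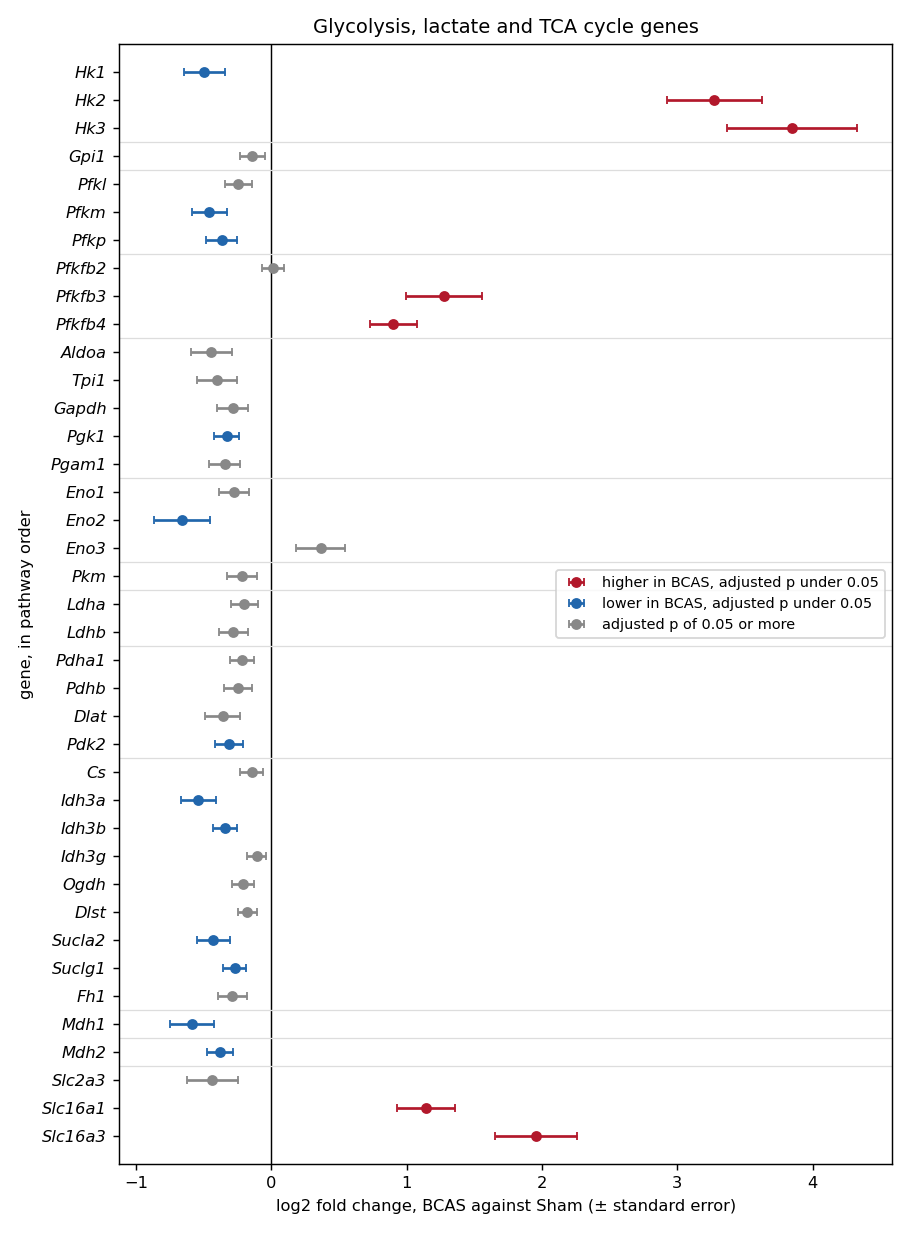
Log2 fold change of BCAS against sham with its standard error for the 39 genes, in the order of the pathway. Red points mark the 6 genes that rose, blue points the 12 that fell and grey points the 21 without a call.

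The largest changes were at hexokinase, which traps glucose in the cell as glucose 6-phosphate. Hk2 (ENSMUSG00000000628.10, chr6:82725025-82774454 of mm10, minus strand) rose 9.68-fold. Its 4 sham libraries had 3.18, 5.37, 4.06 and 2.72 CPM, and its 4 BCAS libraries had 57.5, 18.7, 35.3 and 36.8 CPM. The lowest BCAS mouse stood well above the highest sham mouse. The log2 fold change was 3.27 ± 0.35 (SE, the standard error, adjusted p = 0.00156).

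Hk3 (chr13:55005985-55021385, minus strand) changed most of the 39 genes. Sham libraries held 1.93, 1.44, 1.72 and 1.69 CPM of Hk3, and BCAS libraries held 46.1, 9.37, 26.4 and 16.3 CPM. The sham mice were nearly equal, whereas the BCAS mice differed widely among themselves. The increase was 14.4-fold, a log2 fold change of 3.85 ± 0.48 (SE, adjusted p = 0.00203).

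Hk1 (chr10:62268855-62379908, minus strand), the main hexokinase of the brain, fell. Its values were 436, 459, 418 and 438 CPM in sham and 230, 395, 309 and 308 CPM in BCAS mice. All BCAS mice were below all sham mice, with BCAS 2 close to them. The log2 fold change was -0.50 ± 0.15 (SE, adjusted p = 0.0359, and 0.00339 to 0.0895 with 1 library left out).

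Per kilobase of exon, Hk1 made up 97.9% ± 0.27 (SD, n = 4) of the summed signal of these 3 genes in sham and 73.7% ± 14.2 in BCAS mice. The hexokinase-like Hkdc1, described below, is not in this sum, and its level was 3.35 ± 0.99 CPM per kb in sham and 1.38 ± 0.35 CPM per kb in BCAS mice, against 0.64 ± 0.20 and 6.21 ± 2.66 CPM per kb for Hk2. Hk2 went from 1.22% ± 0.34 to 12.7% ± 5.57 and Hk3 from 0.88% ± 0.13 to 13.6% ± 8.86. In BCAS 1 the share of Hk1 was 54.9%, and in BCAS 2 it was 89.1%. The summed level of the 3 hexokinases was 52.4 ± 2.07 CPM per kb in sham and 49.2 ± 2.14 CPM per kb in BCAS mice, and these ranges overlapped.

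The log2 ratio of 2 isoenzymes within a library does not depend on the scaling of that library, and 10 such pairs were compared by an exact two-sided permutation test over the 70 arrangements of the libraries, for which the smallest possible p is 0.0286. The ratio of Hk2 to Hk1 was higher by 3.72 on the log2 scale in BCAS mice, and that of Hk3 to Hk1 by 4.12. Both reached the smallest p of the exact test, 0.0286 (adjusted over the 10 pairs, 0.0357). With 1 library left out these differences were 3.34 to 4.14 and 3.60 to 4.63. BCAS 1, with the highest levels of Hk2 and Hk3, also held the highest sums of the microglia and leukocyte markers, 6230 and 137 CPM. However, BCAS 1 was the BCAS mouse farthest from the sham mean in 88.7% of all called genes, and a link was not tested.

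Phosphofructokinase, the next controlled step, fell in 2 of its 3 isoenzymes. Pfkm (chr15:98092589-98132451, plus strand), the main one in cortex, had 424, 392, 355 and 396 CPM in sham and 225, 329, 295 and 293 CPM in BCAS mice. The groups did not overlap, and the log2 fold change was -0.46 ± 0.13 (SE, adjusted p = 0.0267). Pfkp fell by 0.37 on the log2 scale (adjusted p = 0.0401), and Pfkl had a log2 fold change of -0.24 with an adjusted p of 0.0914. Other genes cover 10.7% of the exon bases of Pfkm and 5.6% of those of Pfkp, so reads there may not be assigned to them. The summed phosphofructokinase level was 170 ± 9.41 CPM per kb in sham and 128 ± 18.7 CPM per kb in BCAS mice.

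The makeup of this step moved little. Pfkm formed 69.1% ± 1.27 of the sum in sham and 66.8% ± 0.94 in BCAS mice. The log2 ratio of Pfkl to Pfkm was higher by 0.22 in BCAS mice (exact permutation p = 0.0286, adjusted 0.0357), a call that was lost with limma in place of the exact test (Pfkl/Pfkm, adjusted p = 0.0579). For Pfkp to Pfkm the difference was 0.09, and its groups overlapped (exact permutation p = 0.257, adjusted 0.286).

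The PFKFB enzymes make and remove fructose 2,6-bisphosphate, the signal that switches phosphofructokinase on. Pfkfb3 (chr2:11471433-11554077, minus strand), the form with the strongest kinase activity, rose 2.42-fold. Its sham libraries had 34.2, 34.8, 26.3 and 41.3 CPM and its BCAS libraries 119, 42.0, 82.6 and 86.9 CPM. BCAS 2 lay just above the highest sham mouse, and the other 3 lay far above it. The log2 fold change was 1.28 ± 0.28 (SE, adjusted p = 0.0121).

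Pfkfb4 (chr9:108991778-109032228, plus strand) was at 16.3, 15.5, 18.5 and 12.5 CPM in sham and at 37.8, 22.7, 29.4 and 27.6 CPM in BCAS mice. Its groups were clearly apart, with a log2 fold change of 0.90 ± 0.17 (SE, adjusted p = 0.00799). Pfkfb2, the form best known from heart, had 24.3 to 27.5 CPM in sham and 24.9 to 27.0 CPM in BCAS mice. Its log2 fold change was 0.01 (adjusted p = 0.934), its sign changed in 3 of 17 other fits, and other genes cover 19.5% of its exon bases. The ratio of Pfkfb3 to Pfkfb2 was higher by 1.19 and that of Pfkfb4 to Pfkfb2 by 0.88 on the log2 scale (exact permutation p = 0.0286, adjusted 0.0357, for both). The summed PFKFB level was 11.3 ± 0.50 CPM per kb in sham and 20.5 ± 5.32 CPM per kb in BCAS mice. Pfkfb3 formed 39.8% ± 5.78 of it in sham and 51.7% ± 8.20 in BCAS mice, while Pfkfb2 went from 31.5% ± 0.76 to 18.6% ± 5.87.

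**Figure D3:**
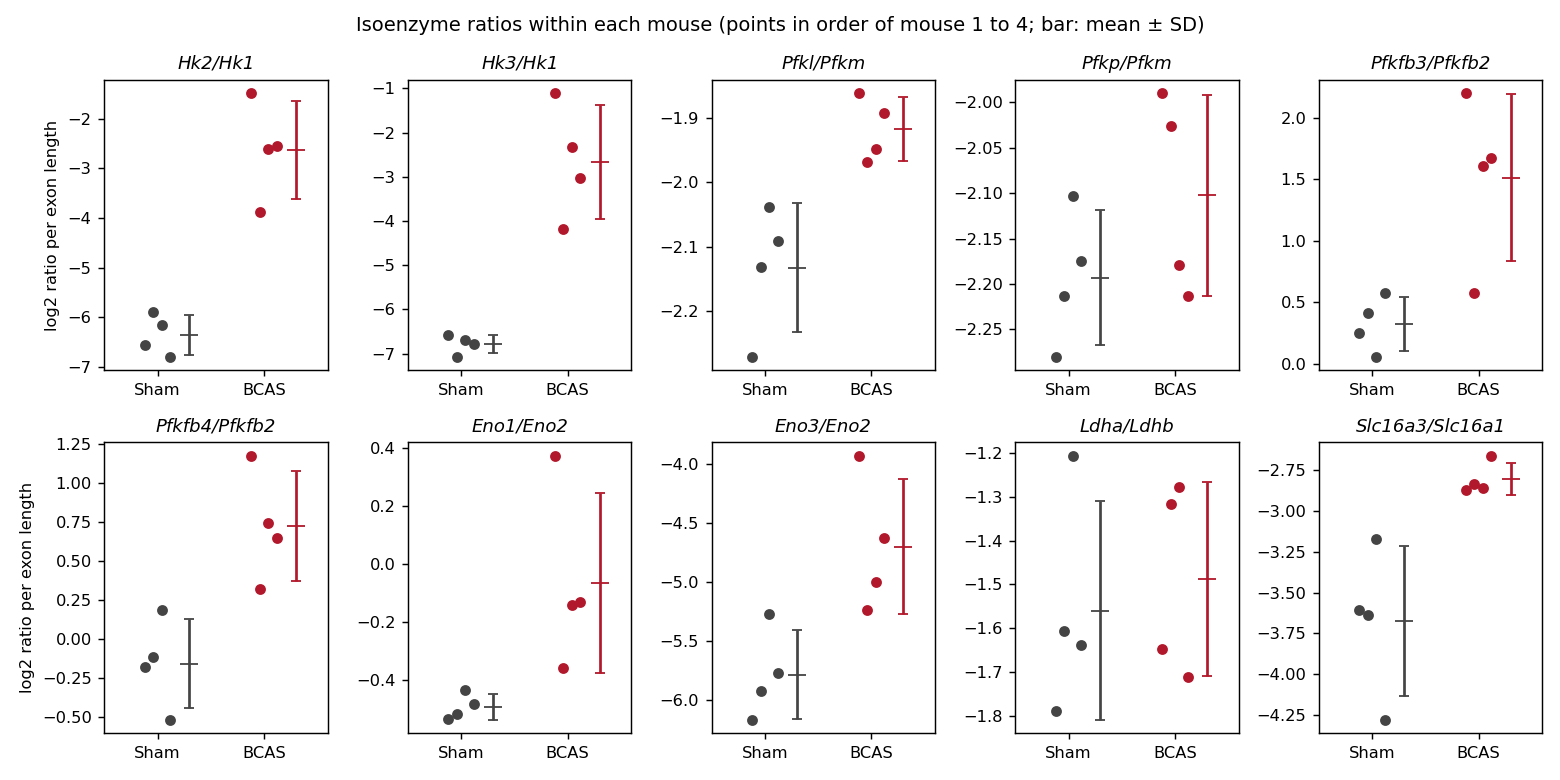
Log2 ratio of 2 isoenzymes per exon length in each mouse for 10 pairs, with sham in grey, BCAS in red and bars for the mean and SD of 4 mice. In 8 of the 10 pairs the groups are apart, the exceptions being Pfkp to Pfkm and Ldha to Ldhb.

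Of the 7 remaining steps from glucose 6-phosphate to pyruvate that were represented by 1 gene, all had negative log2 fold changes with a median of -0.33, and 1 was called lower, beside 12.8% of all tested genes. This was Pgk1 (chrX:106187100-106203699, plus strand), phosphoglycerate kinase, which makes the first ATP of glycolysis. It had 403, 400, 370 and 393 CPM in sham and 277, 337, 329 and 303 CPM in BCAS mice. The groups were apart with a log2 fold change of -0.33 ± 0.09 (SE, adjusted p = 0.0288).

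The other 6 had an adjusted p above the threshold. Aldoa, aldolase A, had a log2 fold change of -0.44 (adjusted p = 0.0518) and Pgam1, phosphoglycerate mutase, one of -0.34 (adjusted p = 0.0501). Tpi1, triosephosphate isomerase, had -0.40 (adjusted p = 0.0635). These 3 and Pkm did not overlap between the groups, as was the case for 34.8% of all tested genes. Pkm, pyruvate kinase, had -0.22 (adjusted p = 0.159) and Gpi1, the isomerase after hexokinase, -0.14 (adjusted p = 0.266). Other genes cover 15.3% and 11.5% of the exon bases of Pkm and Gpi1.

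Gapdh, glyceraldehyde 3-phosphate dehydrogenase, is of interest because the study used it as the reference gene of its qRT-PCR. In that qRT-PCR, done on other mice, the study reported an unchanged Gapdh level between sham and BCAS. The sham libraries had 137, 142, 124 and 144 CPM and the BCAS libraries 88.3, 127, 116 and 118 CPM. Only BCAS 2 reached the range of the sham mice. The log2 fold change was -0.29 ± 0.12 (SE, adjusted p = 0.0857), and with 1 library left out the adjusted p was 0.0374 to 0.177, with a call in 1 of 8 fits, that without BCAS 2. Without BCAS 1 the log2 fold change was -0.17. Gapdh has many processed pseudogenes, and read pairs that align equally well to several places may be missing from its count.

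At enolase the neuronal isoenzyme fell. Eno2 (chr6:124760053-124769673, minus strand), a classical neuronal marker, had 933, 947, 815 and 925 CPM in sham and 354, 760, 592 and 589 CPM in BCAS mice. It was below the sham range in every BCAS mouse, and BCAS 1 was lowest. The log2 fold change of -0.66 was the most negative of the 39 genes (SE 0.21, adjusted p = 0.0391, and 0.00598 to 0.0923 with 1 library left out).

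Eno1 had 691 to 758 CPM in sham and 525 to 679 CPM in BCAS mice (log2 fold change -0.28, adjusted p = 0.0791). Eno3 was low, at 4.77 to 7.78 CPM and 6.81 to 8.77 CPM, and had a log2 fold change of 0.37 (adjusted p = 0.142). Per kilobase, Eno2 formed 57.8% ± 0.91 of the enolase sum in sham and 50.1% ± 5.50 in BCAS mice, and Eno1 41.1% ± 0.64 and 47.9% ± 4.94. In BCAS 1 the order was reversed, with 54.9% Eno1 and 42.4% Eno2. The ratio of Eno1 to Eno2 was higher by 0.43 on the log2 scale in BCAS mice and that of Eno3 to Eno2 by 1.08 (exact permutation p = 0.0286, adjusted 0.0357, for both). With 1 library left out these differences were 0.28 to 0.52 and 0.83 to 1.26, and the first was 0.28 without BCAS 1. The neuron markers were lower in the same mice, with the lowest sum, 4400 CPM, in BCAS 1, and their part in the level of Eno2 was not tested.

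Lactate dehydrogenase, which converts pyruvate and lactate into each other, showed no call. Ldha, the subunit favouring lactate production, had 296, 323, 337 and 300 CPM in sham and 245, 292, 304 and 254 CPM in BCAS mice. The groups overlapped, with a log2 fold change of -0.20 ± 0.10 (SE, adjusted p = 0.155). Ldhb, the subunit favouring lactate use, had 369 to 486 CPM in sham and 345 to 394 CPM in BCAS mice (log2 fold change -0.28, adjusted p = 0.0767). Ldha formed 25.4% ± 3.36 of the sum per kilobase in sham and 26.4% ± 2.98 in BCAS mice. The ratio of Ldha to Ldhb differed by 0.07 on the log2 scale (exact permutation p = 0.8, adjusted 0.8), and by -0.01 to 0.19 with 1 library left out.

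**Figure D4:**
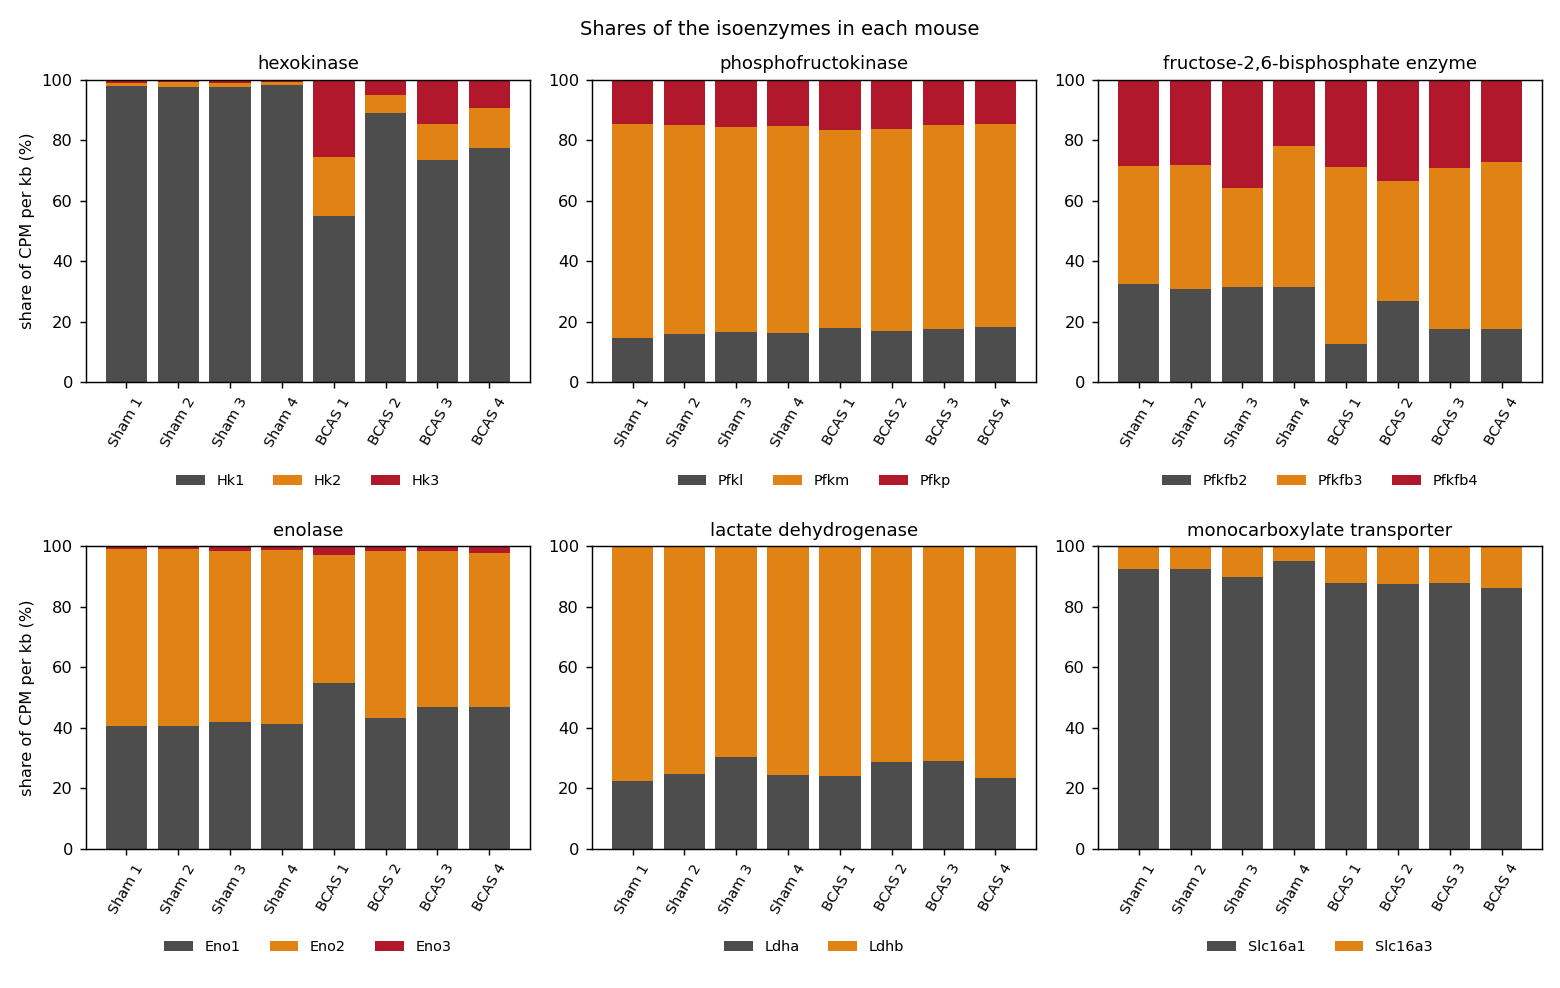
Share of each isoenzyme in the summed CPM per kb of its step, in percent, for each of the 8 mice. The share of Hk2 and Hk3 is larger in each BCAS mouse than in any sham mouse, while the lactate dehydrogenase shares overlap between the groups.

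Both lactate transporters rose. Slc16a1 (MCT1, chr3:104638668-104658462, plus strand) was measured at 52.7, 56.0, 43.9 and 41.5 CPM in sham and at 138, 64.3, 116 and 109 CPM in BCAS mice. BCAS 2 was just above the sham range and the other BCAS mice far above it. The increase was 2.20-fold, a log2 fold change of 1.14 ± 0.21 (SE, adjusted p = 0.00713).

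Slc16a3 (MCT4, chr11:120948480-120960868, plus strand), the low-affinity exporter of glycolytic cells, rose 3.88-fold. It had 5.17, 5.37, 5.83 and 2.53 CPM in sham and 22.8, 10.8, 19.2 and 20.8 CPM in BCAS mice. No sham mouse came near the lowest BCAS mouse. The log2 fold change was 1.96 ± 0.30 (SE, adjusted p = 0.0035). The ratio of Slc16a3 to Slc16a1 was higher by 0.87 on the log2 scale in BCAS mice (exact permutation p = 0.0286, adjusted 0.0357), so that Slc16a3 formed 7.44% ± 2.09 of their sum per kilobase in sham and 12.5% ± 0.76 in BCAS mice. Slc16a1 remained the more abundant per kilobase in every mouse.

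Slc2a3, the neuronal glucose transporter, had 153 to 190 CPM in sham mice and 84.7, 172, 118 and 127 CPM in BCAS mice. BCAS 2 lay inside the sham range, and the log2 fold change was -0.43 ± 0.19 (SE, adjusted p = 0.1). With 1 library left out its adjusted p was 0.00865 to 0.201, and it was called in 1 of these 8 fits, that without BCAS 2.

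The 15 genes of pyruvate dehydrogenase, the TCA cycle and the malate step in the cytosol all had negative log2 fold changes, with a median of -0.29, and 7 fell. For 12 of the 15 the groups did not overlap. Over all tested genes 12.8% fell and 34.8% did not overlap. All 7 lost their call without Sham 1, Sham 2 or Sham 4.

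Within the pyruvate dehydrogenase complex, Pdha1, Pdhb and Dlat, which encode the subunits of its first enzyme and its acetyltransferase, had log2 fold changes of -0.22, -0.25 and -0.36 without a call (adjusted p = 0.0815, 0.102 and 0.0610). Map3k15, on the opposite strand, covers 16.1% of the exon bases of Pdha1. Pdk2, a kinase that switches the complex off, fell by 0.31 on the log2 scale (adjusted p = 0.0495). It had 95.8 to 107 CPM in sham and 67.9, 96.1, 81.1 and 80.2 CPM in BCAS mice, so BCAS 2 was inside the sham range.

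Isocitrate dehydrogenase of the TCA cycle is built from 3 kinds of subunit, whose changes were not tested against each other. Idh3a (chr9:54586334-54604661, plus strand), the catalytic one, had 268, 265, 233 and 271 CPM in sham and 137, 211, 183 and 182 CPM in BCAS mice. All BCAS mice were below the sham range, with a log2 fold change of -0.54 ± 0.13 (SE, adjusted p = 0.0175, and 0.00329 to 0.0534 with 1 library left out). Idh3b fell by 0.34 on the log2 scale (adjusted p = 0.0236), with 184 to 206 CPM in sham and 135 to 172 CPM in BCAS mice. For Idh3g the value was -0.11 (adjusted p = 0.262), with overlapping groups of 109 to 123 and 105 to 115 CPM.

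Succinyl-CoA synthetase joins the alpha subunit Suclg1 with either Sucla2, the ATP-forming partner typical of neurons, or Suclg2, the GTP-forming partner. Sucla2 (chr14:73525319-73596142, plus strand) had 163, 170, 156 and 154 CPM in sham and 93.3, 142, 121 and 122 CPM in BCAS mice. It fell with no overlap, by 0.43 ± 0.12 on the log2 scale (SE, adjusted p = 0.0283). Suclg1 fell by 0.27 (adjusted p = 0.0394), with 78.1 to 89.9 CPM against 63.3 to 77.2 CPM. Suclg2, which belongs to the list of other pathway genes, went the other way: 26.1, 24.1, 22.8 and 24.0 CPM in sham and 56.0, 32.9, 42.4 and 49.3 CPM in BCAS mice. It rose with a log2 fold change of 0.90 ± 0.15 (SE, adjusted p = 0.00502).

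Mdh1 and Mdh2, the cytosolic and mitochondrial malate dehydrogenases, carry reducing equivalents from glycolysis into the mitochondrion. Mdh1 (chr11:21556787-21572367, minus strand) had 688, 691, 606 and 671 CPM in sham and 307, 539, 464 and 458 CPM in BCAS mice. The decrease was the largest of the 15 genes above, with a log2 fold change of -0.59 ± 0.16 (SE, adjusted p = 0.0273, and 0.00588 to 0.0728 with 1 library left out). Mdh2 (chr5:135778480-135790398, plus strand) had 246, 252, 237 and 241 CPM in sham and 160, 210, 187 and 193 CPM in BCAS mice. Its groups were apart, with a log2 fold change of -0.38 ± 0.10 (SE, adjusted p = 0.0197).

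The remaining TCA genes were lower in value without a call. Citrate synthase (Cs), the entry of the cycle, had a log2 fold change of -0.14 (adjusted p = 0.211). Ogdh and Dlst, of the 2-oxoglutarate dehydrogenase complex, had -0.21 (adjusted p = 0.0786) and -0.18 (adjusted p = 0.0876). Fh1, fumarate hydratase, had -0.29 (adjusted p = 0.0639). The groups were apart in all 4, beside 34.8% of all tested genes.

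The same fit was read for 57 other genes of the pathway, listed by their role. Of them 52 passed the filter, 8 rose, 10 fell and 34 had no call, with a median log2 fold change of -0.09. The 18 called of 52 are close to the 32.0% called of all tested genes. Of these, 3 passed the thresholds of the study. Slc2a4 (GLUT4), the insulin-dependent glucose transporter, rose from 1.25 to 1.89 CPM in sham to 3.86 to 6.70 CPM in BCAS mice (log2 fold change 1.77, adjusted p = 0.00254). Slc2a5 (GLUT5), the fructose transporter known from microglia, had 4.46 to 7.24 CPM and 9.12 to 23.2 CPM, a log2 fold change of 1.37 (adjusted p = 0.0091). Hkdc1, a further hexokinase-like gene, fell by 1.28 on the log2 scale (adjusted p = 0.00975), from 10.8 to 23.1 CPM to 4.53 to 8.76 CPM.

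The following relatives of the steps above had no call. Aldoc, the aldolase of astrocytes, had a log2 fold change of 0.12 (adjusted p = 0.434), and Slc2a1 (GLUT1), the glucose transporter of endothelium and glia, one of 0.26 (adjusted p = 0.15). Slc16a7 (MCT2), the monocarboxylate transporter of neurons, had -0.44 (adjusted p = 0.0583), beside the called increases of Slc16a1 and Slc16a3. Pdk1, Pdk3 and Pdk4 had log2 fold changes of 0.13, -0.10 and 0.21 without a call. Ogdhl, the brain relative of Ogdh, had a value of -0.23 (adjusted p = 0.187).

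Another 3 genes are named after their values were seen. Idh1 and Idh2, the NADP-dependent isocitrate dehydrogenases outside the TCA cycle proper, rose with log2 fold changes of 0.44 (adjusted p = 0.0387) and 0.65 (adjusted p = 0.0117), while Idh3a and Idh3b fell. Pdp1, the phosphatase that switches pyruvate dehydrogenase on, fell by 0.91 on the log2 scale (adjusted p = 0.00419). Its levels were 146 to 186 CPM in sham and 63.3 to 104 CPM in BCAS mice.

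The BCAS mice differed in the same order across the pathway. BCAS 1 was farthest from the sham mean and BCAS 2 nearest to it in 33 of the 39 genes (84.6%) and in all 18 called genes. This order held for 51.1% of all tested genes and for 81.4% of all called genes, so it was not particular to the pathway. The order of the marker sums was the same, with BCAS 1 highest and BCAS 2 lowest for the microglia and astrocyte lists and the reverse for the neuron list. Hk2 thus ranged from 18.7 to 57.5 CPM and Eno2 from 354 to 760 CPM within the BCAS group, whereas the sham group stayed within 2.72 to 5.37 CPM and 815 to 947 CPM.

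**Figure D5:**
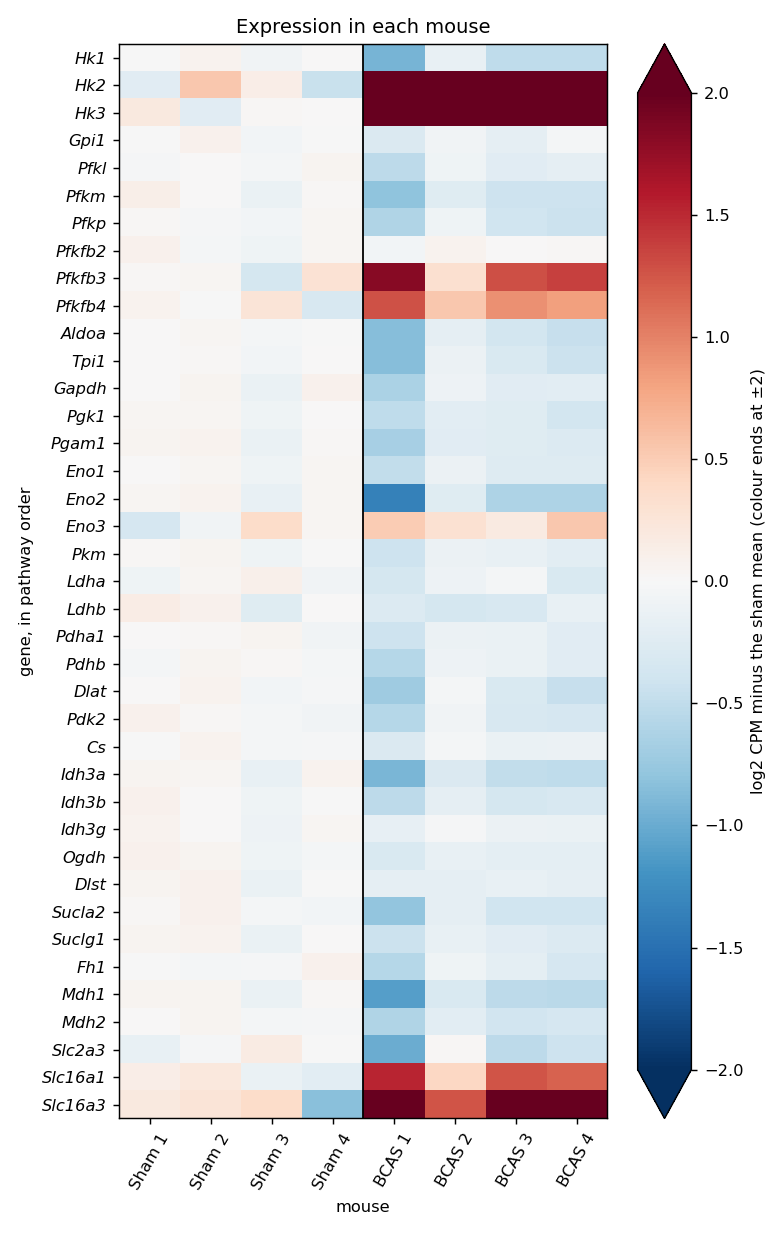
Log2 CPM minus the sham mean for each of the 39 genes (lines, in the order of the pathway) in each of the 8 mice (columns), with red above and blue below the sham mean and the colour scale ending at 2 on either side. The column of BCAS 1 is the most intense and that of BCAS 2 the palest of the BCAS mice, and Hk2, Hk3 and Slc16a3 run past the end of the scale.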

How the data were processed

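RNA-seq was performed on the right cerebral cortex of 4 sham and 4 BCAS mice (1 mouse per library), grouped by the sample titles. The authors used Trim Galore for trimming, HISAT2 for alignment to mm10 and SAMtools 1.9 for sorting, and deposited raw counts per gene from featureCounts, for which the file headers name version 2.0.1 and GENCODE vM20 and the methods version 1.6.3. Counting ignored strand and left out multi-mapped reads by default. Gene IDs were named through GENCODE vM21 (99.95% matched), and coordinates are those of the tables (mm10). Of 2 genes named Aldoa the longer was used.

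The counts were tested with edgeR 4.0.16 (R 4.3.3): TMM factors (0.949 to 1.05), filterByExpr (minimum count 10), quasi-likelihood F-test without covariates, Benjamini-Hochberg adjustment over 17136 genes, where the study used limma. CPM are TMM-normalized. Per-length levels divide CPM by exon length in kb. Isoenzyme ratios had 0.5 added to each count. The alternatives were other scaling factors, filters and tests (DESeq2 1.42.0, limma 3.58.1), the replicate number as a block and leaving out each library.

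The members and lists were chosen with earlier results of these data known. All 39 members are named, as are other pathway genes past the thresholds of the study and isoenzymes of a member's step, except 1 gene that is not reported here. No 2 libraries agreed within sampling noise. Figures were drawn with matplotlib 3.10.9.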

Additional observations from a re-analysis of the deposited data

Results flagged for a closer look

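Among 98 groups of 4 values (the 39 genes and 10 ratios in both groups), 4 held a value far from the other 3, where chance gives about 1 in 20. In BCAS 1, Pgam1 was lowest with 242 CPM, its gap to the next mouse being 0.893 of the range of the group. In Sham 3, the library with the choroid plexus markers, Eno2 was lowest with 815 CPM and a gap of 0.833 of the range. In BCAS 3, Dlst was highest with 111 CPM and a gap of 0.943 of a narrow range. In BCAS 4, the log2 ratio of Slc16a3 to Slc16a1 was highest with -2.66 and a gap of 0.84 of the range.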

How the results depend on the processing

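The 6 members that rose were called in every one of the 17 other fits, and 38 or 39 of the 39 members kept their sign. The sign that changed was that of Pfkfb2, to -0.0046 with upper-quartile factors and to -0.0127 and -0.0266 without Sham 2 and Sham 3 (range -0.0266 to 0.043 with 1 library left out). The number of members that fell, 12, was 6 with library size alone, 23 with DESeq2, 2 with the replicate block (Idh3a and Sucla2) and 0 to 21 with 1 library left out. Over all genes, 2199 fell, against 1294 with library size alone, 1127 with the replicate block and 418 to 3675 with 1 library left out. The 3291 genes that rose became 2131 to 4491 with 1 library left out. At the thresholds of the study 220 genes fell, against 145 with limma on log2(CPM + 1) and 86 to 559 with 1 library left out. The cause was not tested. The replicate numbers are shared by title alone: same-number libraries correlated by -0.103 to 0.001, and 0 of 8 libraries correlated best with its own number. For the ratios, limma in place of the exact test lost Pfkl to Pfkm, and its replicate block also Eno1 to Eno2. The 12 decreases lay near the threshold, with adjusted p of 0.0175 to 0.0495.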
